A study of Mus musculus with 12 samples.

Results

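Mature migratory dendritic cells are the dendritic cells that have taken up antigen, matured and begun to leave the tissue. A total of 534 such cells were found among the 128912 cells that passed the filter, out of 140639 barcodes in the deposited matrix. They were chosen by their own transcripts: at least 2 unique molecular identifiers (UMIs, which count each captured transcript once) of Ccr7, at least 2 of Fscn1, at least 1 of Ccl22, no UMI of the T cell genes Cd3d, Cd3e and Cd3g or the B cell gene Cd79a, and at most 1 UMI of the macrophage gene C1qa. Barcodes entered only if over 200 but under 5000 genes were detected and mitochondrial UMIs did not exceed 10%. The levels of these 8 genes therefore describe the choice and are not results.

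The cells come from scRNA-Seq of CD45+ cells of MC38 tumors, a colon carcinoma line grown under the skin of C57BL/6 mice. All mice were sampled on day 17 after implantation, and CD45+ cells were enriched with microbeads. The 4 groups of 3 mice received vehicle for 7 days, PF-06821497, an inhibitor of EZH2 (EZH2i), for 7 days, vehicle for 16 days or EZH2i for 16 days, with EZH2i given once a day at 100 mg/kg. Each barcode carries a library number from 1 to 12, and no source used here ties a number to a mouse, so vehicle and EZH2i were not compared, the matrix counts as 1 sample, and no p-value is given.

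A dendritic cell that senses danger stops taking up antigen, presents what it has already loaded and switches on CCR7, the receptor that guides it along CCL21 and CCL19 to the lymph node. Fascin, encoded by Fscn1, bundles the actin of its long extensions, and CCL22 attracts T cells that carry CCR4. In tumors, cells of this kind express ligands that stimulate T cells and ligands that restrain them at the same time, and they can arise from either of the conventional lineages, cDC1 and cDC2.

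Libraries did not contribute evenly. The cells numbered 50, 45, 17, 117, 68, 76, 25, 41, 17, 17, 40 and 21 in libraries 1 to 12. As a share of the cells kept they made up 0.203% in library 6 (95% Clopper-Pearson interval 0.160 to 0.254%), the lowest, and 1.04% in library 4 (0.857 to 1.24%), the highest, with a median of 0.416% over the 12 libraries. Over all libraries the share was 0.414% (0.380 to 0.451%), and 0.355% without library 4. The intervals of libraries 4 and 6 did not overlap, and library 4 alone held 21.9% of these cells. All intervals given here cover counting error only, not the spread between mice.

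**Figure D1:**
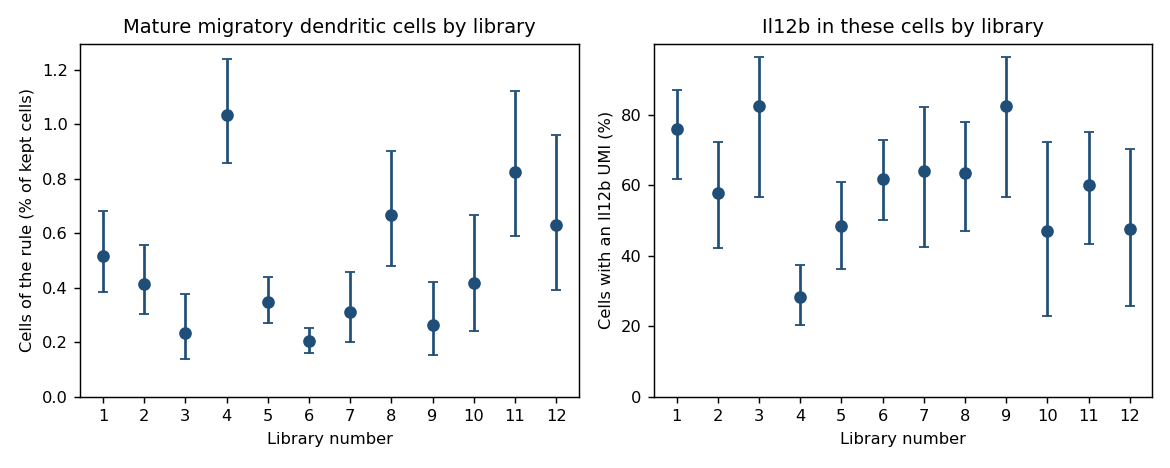
Share of mature migratory dendritic cells among the cells kept in each library (left, percent) and share of these cells with an Il12b UMI (right, percent). Points are the values of the 12 libraries and bars are 95% Clopper-Pearson intervals. Library 4 is the highest on the left at 1.04% and the lowest on the right at 28.2%.

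The median cell held 4542.5 UMIs (range 650 to 26941) of 1617.5 genes, 0.784 times the median of its own library. Only 14 of the 534 cells (2.62%) exceeded 2 times that median, and no doublet caller was run. Median UMI counts of the kept cells ranged from 2291 to 15081 over the libraries, so rare transcripts are missed more often in some libraries than in others. Of the 534 cells, 18 had a barcode sequence that also occurs in another library, and no barcode sequence was shared by 2 of them. Y-linked transcripts were present in 6 libraries and absent in 6, although the study describes female mice, and no result here divides the libraries that way. Library 4 stands apart for several genes named below, and where leaving it out ends a call of a gene named below, or moves its level by over 1.5 times, the value without it is given, with library 4 left out of every class.

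Values near the limits of the rule showed how sharp it was. Cells with Ccr7 at 2 UMIs, just inside, numbered 38 and had Cacnb3 at 662.1 CPM (summed UMIs scaled to a common total for every class), and the 39 cells with Ccr7 at 1, just outside, had 539.3. The 93 cells with Fscn1 at 2 and the 104 with Fscn1 at 1 had 441.1 and 408.2 CPM. The 45 cells with Ccl22 at 1 and the 41 with none had 555.4 and 499.9 CPM. The limits on Ccr7, Fscn1 and Ccl22 thus cut through cells of similar Cacnb3 levels, whereas the 214 cells left out for 2 or more C1qa UMIs had 245.3 CPM and the 95 left out for a T or B cell UMI 288.9 CPM.

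Other markers of mature dendritic cells were then compared with 2 other dendritic classes of the same libraries. The first, called cDC1-marked, was the 413 cells with Xcr1 and Clec9a but without Ccr7 and Fscn1 (median 6349 UMIs), and the second, called Cd209a-positive, was the 205 cells with at least 2 UMIs of Cd209a but without Xcr1, Clec9a, Ccr7 and Fscn1 (median 4456 UMIs). The limits on T cell, B cell and C1qa UMIs held for both. The classes drew unevenly on the libraries: library 4 held 117 mature, 17 cDC1-marked and 38 Cd209a-positive cells, and library 6 held 76, 114 and 34. Sums also weigh deep cells more, since the 41 mature cells of library 8 held 604195 of the 3110325 UMIs. UMIs were summed over each class, and a gene at 20 CPM or more in either class was called higher or lower at a 2-fold difference of CPM + 1. A gene that passes this filter only through the class where it is high is nearly bound to be called, so the counts over lists are descriptions. Of 14 tested label markers, 13 were higher than in the cDC1-marked cells, where 986 of 5587 genes (17.6%) were called higher, with a median log2 fold of 5.18 against -0.03 over all genes tested. The same number of 14 was higher than in the Cd209a-positive cells, where 804 of 5650 genes (14.2%) were called higher, with a median log2 fold of 4.95 against -0.13. Genes lower were 17.8% of those tested in the first comparison and 20.5% in the second. These shares over all genes are the background for every list count below. TMM scaling, which shifted the second by a log2 of -0.19, turned its 804 higher and 1161 lower genes into 1051 and 963. Because the cells were chosen by their transcripts, these counts describe them and test nothing. The lists below are not separate from the label markers. Tmem123 and Anxa3 are also in the migration list, Il4i1 and Socs2 in the inhibitory list, and Relb and Traf1 in the NF-kB list. Such a gene counts in each of its lists.

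Cacnb3 (chr15:98630840-98644529, GRCm38), a calcium channel subunit gene and a marker of these cells, ranged from 366.8 to 714.7 CPM over the libraries with a median of 501.1. Its pooled level was 536.6 CPM, against 2.64 CPM in cDC1-marked cells and no UMI in Cd209a-positive cells, at least 202 times higher against the limit of 3 counts over that class. Tmem123, a surface protein gene, stood at 1576 CPM (libraries 1082 to 2209), against 53.7 and 122.4 CPM. Samsn1, an adaptor gene, stood at 1281 CPM, and Tbc1d4, a regulator of vesicle traffic, at 1289 CPM. Each of these 4 genes was higher in all 5 paired libraries, those in which each class reached 20 cells, in both comparisons. The paired libraries were 2, 5, 6, 7 and 11 against cDC1-marked cells and 1, 2, 4, 6 and 7 against Cd209a-positive cells. Over all genes, 14.9% and 11.4% were called higher and were higher in every paired library. Cd83, a classic maturation marker, was the exception at 815 CPM, only 1.60 times the level of cDC1-marked cells and 1.20 times that of Cd209a-positive cells. Lamp3, the marker that gives such cells one of their names in human tumors, had no UMI in any of the 534 cells, which allows a share of up to 0.562% of cells with a UMI. It was also almost absent from macrophage-marked cells (C1qa of 3 or more UMIs with Adgre1), at 0.0188 CPM. Lamp3 was absent and Cd83 did not separate the classes, and the other markers go with the label.

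Transcripts of T, B and tumor cells were low. For T and B cells the rule itself favors this, since it left out cells with a Cd3d, Cd3e, Cd3g or Cd79a UMI. The 9 T and NK cell genes summed to 43.1 CPM, the 5 B and plasma cell genes to 1.93 CPM and the 6 tumor and stroma genes to 6.75 CPM, with Cd4, Krt8, Krt18 and Krt19 at 0 UMIs. The 12 macrophage and monocyte genes summed to 1210 CPM (libraries 374 to 2553), against 41471 CPM in macrophage-marked cells, and Apoe made up 538.9 CPM of the 1210. The limit on C1qa bears on this sum. The macrophage-marked cells were themselves chosen by C1qa and by Adgre1, which is among the 12 genes. In cDC1-marked cells the 12 genes summed to 1148 CPM and in Cd209a-positive cells to 3217 CPM. Of the 10 tested against Cd209a-positive cells, 6 were lower in the mature cells and none higher. Whether the Cd209a-positive class holds monocytes, which would bear on genes called lower than in it, was not tested. The 6 neutrophil genes summed to 478.4 CPM, with a median library of 20.8 CPM and 1998 CPM in library 4, against 62.2 CPM in cDC1-marked, 168.6 CPM in Cd209a-positive and 140.8 CPM in macrophage-marked cells. Of the 3 neutrophil genes tested, S100a8, S100a9 and G0s2, 3 were higher than in cDC1-marked and 2 higher than in Cd209a-positive cells. Without library 4 only S100a8 was still called higher than in cDC1-marked cells, while S100a9 was at 26.9 against 21.1 CPM and G0s2, 32.2 CPM pooled, was at 0.804 CPM. A total of 20 cells with 3 or more UMIs of S100a8 and S100a9 held 97.4% of the UMIs of both genes, and 15 of the 20 were from library 4. Without these 20 cells S100a8, S100a9 and G0s2 were at 4.71, 6.73 and 3.70 CPM. None was then called higher than in either class, and S100a9 was called lower than in both. The 20 cells were picked by S100a8 and S100a9 UMIs and left out of the mature cells only. The low levels of these 2 genes without them, and the calls, therefore follow from that choice. Values without these cells are given below for Cxcl2, Ccl3, Ccl4, Cxcl3, Rsad2, Il12b, Ccl5 and Cd274.

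**Figure D2:**
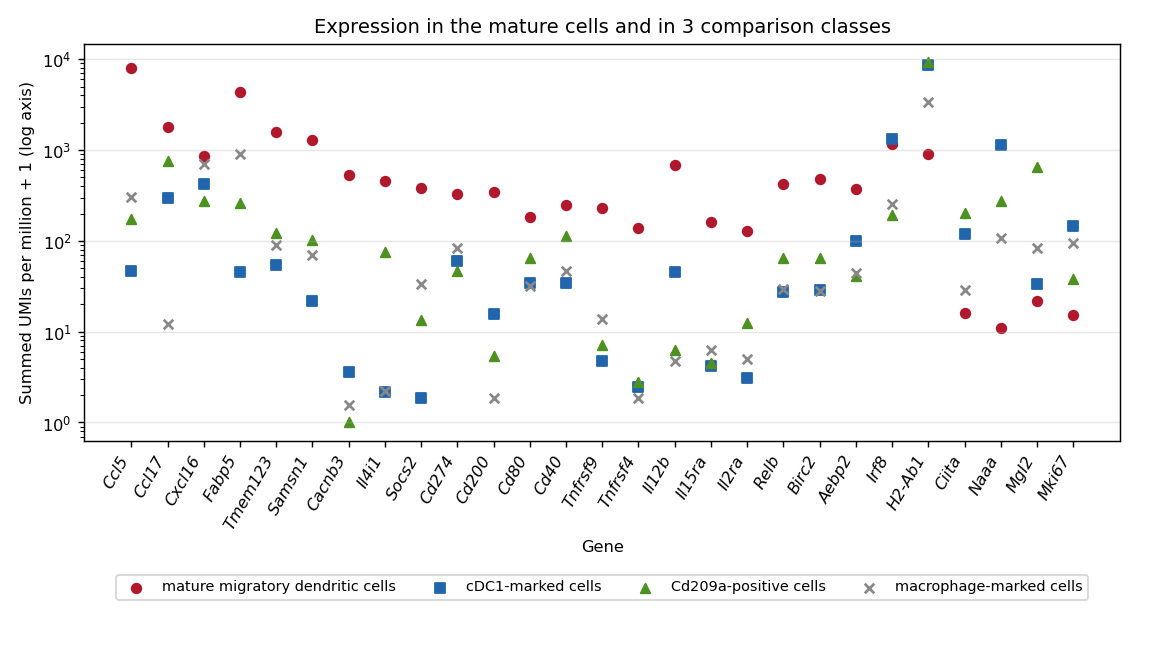
Expression of 27 genes in mature migratory dendritic cells and 3 comparison classes, as CPM plus 1 on a log axis. Each symbol is 1 class over all libraries. Chemokine, costimulatory, inhibitory and NF-kB genes lie highest in the mature cells, as for Ccl5 at 7997 against 46.1 CPM in cDC1-marked cells, while H2-Ab1, Ciita and Naaa lie lowest.

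Chemokines were divided. Ccl5 (chr11:83525778-83530518), which encodes RANTES and attracts T cells, ranged from 5164 CPM in library 4 to 11971 CPM in library 1 with a median of 8944. Pooled, it reached 7997 CPM in 95.1% of the cells, 174 times the cDC1-marked cells (counting interval 148 to 204) and 46.5 times the Cd209a-positive cells (40.3 to 53.8). Ccl17, the second ligand of CCR4 beside CCL22, ranged from 1120 to 2682 CPM, and its pooled 1797 CPM was 6.08 times and 2.37 times the levels of the 2 classes. Cxcl16, which binds CXCR6 on T cells, was even across the libraries at 694.8 to 1005 CPM and 2.06 and 3.16 times the 2 classes. These 3 genes were higher in every paired library, but the call of Cxcl16 against cDC1-marked cells ended without library 7 (864 against 433.7 CPM) or without library 8 (831.6 against 422.4 CPM).

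The inflammatory chemokines behaved otherwise. Cxcl9 and Cxcl10, the interferon-induced ligands of CXCR3, stood at 59.8 and 56.9 CPM, and Cxcl9 was 4.43 and 4.05 times lower than in the 2 classes. Cxcl10 was 13.1 times lower than in Cd209a-positive cells and did not reach 2-fold against cDC1-marked cells. Both were highest in library 2, at 322.6 and 235.6 CPM, with medians of 16.4 and 39.5 CPM, and Cxcl9 was at 34.2 CPM without library 2. Cxcl2, a neutrophil attractant, was at 2339 CPM in library 4 and at 18.8 to 355.8 CPM in the others, so that its pooled 610.5 CPM became 178.8 CPM without library 4 and 144.8 CPM without the 20 cells with S100a8 and S100a9. Cxcl2 was called higher than in cDC1-marked cells, at 199.5 CPM, but not without library 4, when these were at 155.5 CPM, nor without the 20 cells. Ccl4, an inflammatory chemokine, was at 254.3 CPM pooled and 60.3 CPM without library 4, and Ccl3, its close relative, at 110.6 and 10.4 CPM. Ccl3 was called higher than in cDC1-marked cells, at 24.4 CPM, but without library 4 it lay below them, at 18.0 CPM. Ccl9 at 53.7 CPM and Ccl6 at 78.8 CPM, chemokines of myeloid cells, were higher than in cDC1-marked cells and lower than in Cd209a-positive cells. Without library 4 Ccl9 was at 35.8 CPM and Ccl6 at 30.1 CPM, where Ccl6 was no longer called higher than in cDC1-marked cells (26.9 CPM), as was the case without the 20 cells. Ccl19, a CCR7 ligand that mature dendritic cells can make, had 0.322 CPM. Of the 10 chemokines tested, 7 were higher and 2 lower than in cDC1-marked cells, against 3 higher and 5 lower than in Cd209a-positive cells.

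**Figure D3:**
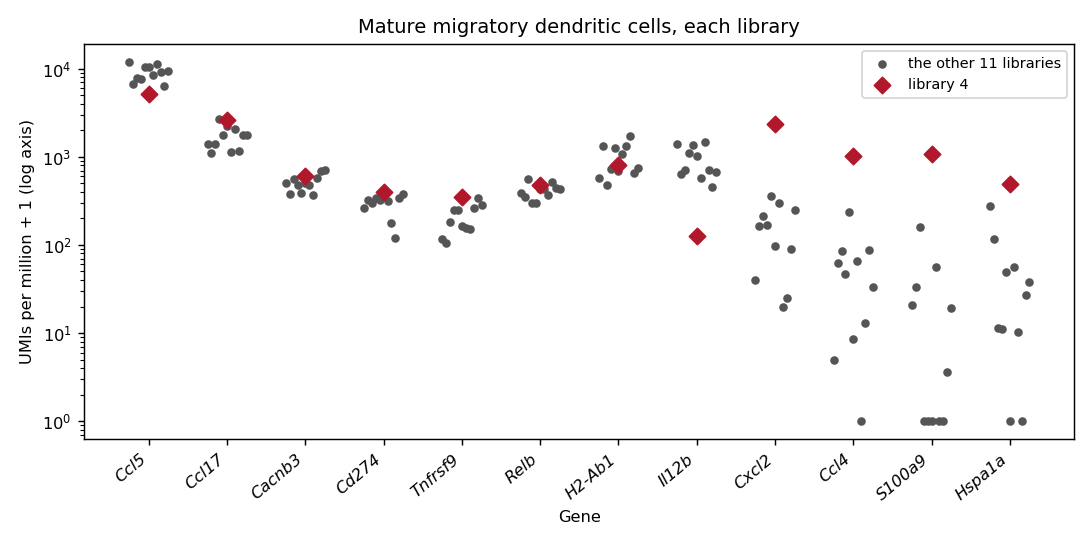
CPM plus 1 (log axis) of 12 genes in the mature migratory dendritic cells of each library. Gray points are 11 libraries and the red diamond is library 4. Cacnb3 and Relb lie close together, while library 4 is the lowest for Il12b at 123.9 CPM and the highest for Cxcl2 at 2339 CPM.

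Costimulatory genes were high as a group. Of 12 tested, 10 were higher and 1 lower than in cDC1-marked cells (median log2 fold 2.68), and 7 were higher and 2 lower than in Cd209a-positive cells (1.30). Cd80 and Cd86 encode the B7 ligands of CD28. Cd80 ranged from 35.7 to 424.0 CPM over the libraries, with a median of 162.1, and its pooled 180 CPM was 5.43 and 2.82 times the 2 classes. Cd86 at 384.5 CPM was 1.49 and 1.54 times the 2 classes, in the same direction in every paired library but under 2-fold. Cd40, through which T helper cells license dendritic cells, stood at 246 CPM, 7.42 and 2.18 times higher, although the second call ended without library 12 (240.9 against 120.8 CPM). Cd70, the ligand of CD27, was at 50.2 CPM with no UMI in either class. Icam1, an adhesion ligand of LFA-1, was at 190.7 CPM and called higher in the first comparison only. Cd48, a ligand of CD244, went the other way, 2.05 and 2.91 times lower at 92.6 CPM, and the first call ended without library 2, 4 or 8, at 90.3, 98.0 and 95.4 CPM against 177.7, 189.8 and 178.6 CPM.

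Among the ligands of the TNF family, Tnfsf9 (4-1BB ligand) at 46.6 CPM was 6.35 times higher than in cDC1-marked cells but 2.51 times lower than in Cd209a-positive cells. Its receptor was far more abundant. Tnfrsf9, which encodes 4-1BB (chr4:150914562-150946102), ranged from 105.1 CPM in library 2 to 347.5 CPM in library 4 with a median of 214.7. Its pooled 231.2 CPM, in 53.2% of the cells, was 60.6 times (35.2 to 114) and 37.2 times (18.0 to 92.9) the 2 classes, and 33.2% of cells thinned to 2000 UMIs still had it, against 1.16% of Cd209a-positive cells. Tnfrsf4, which encodes OX40, stood at 136 CPM against 1.47 and 1.77 CPM. Both receptors are best known from activated T cells.

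Inhibitory ligands and enzymes were high in the same cells. Of 13 tested, 8 were higher and 2 lower than in cDC1-marked cells, and of 14 tested, 9 were higher and 4 lower than in Cd209a-positive cells (median log2 folds 2.91 and 2.06). Cd274, which encodes PD-L1 (chr19:29367455-29388095), ranged from 119.0 to 410.9 CPM and stood at 331.5 CPM in 69.9% of the cells, 5.62 and 7.33 times the 2 classes. Pdcd1lg2, the other PD-1 ligand gene, stood at 119.6 CPM, 10.2 and 5.86 times higher. Cd200, whose product restrains myeloid cells through CD200R, was at 345.3 CPM against 14.7 and 4.44 CPM.

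Il4i1, a secreted amino acid oxidase that limits T cell growth, ranged from 285.9 to 749.6 CPM (highest in library 4) and was 391 and 6.23 times the 2 classes. Socs2, a brake on cytokine signaling, was at 379.4 CPM against 0.880 and 12.4 CPM. Aldh1a2, which makes retinoic acid, was at 64.0 CPM against 5.58 and 1.77 CPM, and the death receptor gene Fas was at 87.8 CPM against 3.23 and 10.6 CPM. Pvr, a ligand of TIGIT and CD226, reached 2-fold in neither comparison at 54.0 CPM. Socs1 and Socs3, both inducible brakes on STAT signaling, stood at 80.1 and 66.2 CPM, and Socs3 was 4.06 times lower than in Cd209a-positive cells. Havcr2 and Lgals9, which encode TIM-3 and its ligand galectin-9, were both lower in both comparisons, at 11.9 and 15.1 CPM. The tryptophan enzymes Ido1 and Ido2 were at 1.61 and 0 CPM.

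Il12b, which encodes the p40 chain shared by IL-12 and IL-23 (chr11:44400063-44414033), stood far above both classes. It ranged from 123.9 CPM in library 4 to 1477 CPM in library 9, with a median of 709.4. Pooled, it stood at 677.1 CPM, against 44.6 CPM in cDC1-marked and 5.32 CPM in Cd209a-positive cells, 15.2 times (12.9 to 18.0) and 127 times (58.3 to 347) higher, and at 815.3 CPM without library 4. Of the cells, 54.1% had an Il12b UMI (49.8 to 58.4%), against 16.0%, 1.46% and, as background, 1.18% of macrophage-marked cells (median 7132 UMIs). When each cell was thinned to 2000 UMIs, which left out 85 shallower mature cells, the shares were 42.3%, 5.04%, 1.73% and 0.450%. Shallower cells of the other classes were left out too. These shares cover 449 mature, 397 cDC1-marked, 173 Cd209a-positive and 2000 randomly drawn macrophage-marked cells. By library, 28.2% of the cells had it in library 4 (20.3 to 37.3%) and 47.1 to 82.4% in the other 11, and the interval of library 4 overlapped those of libraries 5, 10 and 12 and no other. Il12a, the partner chain of IL-12, had no UMI in the 534 cells, which allows up to 0.965 CPM, and Il23a, the partner chain of IL-23, had 6.75 CPM.

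Other cytokine genes were moderate. Il15 and Il15ra, which together present IL-15 to T and NK cells, were at 57.6 and 162.4 CPM, and Il15ra was 50.3 and 45.8 times higher than in the 2 classes. Il2ra, the high-affinity chain of the IL-2 receptor, was at 126.7 CPM, 61.7 and 11 times higher. Il1b, an inflammatory cytokine, was abundant at 1027 CPM, yet 4.0 times lower than in Cd209a-positive cells and within 2-fold of cDC1-marked cells. Tgfb1, an inhibitory cytokine, was at 72.0 CPM and 3.49 times lower than in Cd209a-positive cells. Csf2rb, the common chain of the GM-CSF receptor, did not differ by 2-fold in either comparison at 407 CPM. Of 10 cytokine genes tested, 5 were higher and 1 lower than in cDC1-marked cells, and of 12 tested, 6 were higher and 5 lower than in Cd209a-positive cells.

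The NF-kB transcription factors drive dendritic cell maturation, and their genes and those of survival factors were described next. Of 16 tested, 15 were higher than in cDC1-marked cells (median log2 fold 2.0), but only 7 of 17 were higher than in Cd209a-positive cells (0.79). Relb, the subunit of the alternative pathway, ranged from 296.3 to 558.3 CPM and its pooled 421.5 CPM was 16.0 and 6.60 times the 2 classes. Its partner gene Nfkb2 stood at 184.5 CPM, 6.42 and 2.48 times higher. Rel, Nfkb1 and Nfkbia, of the classical pathway, stood at 945.6, 504.1 and 862 CPM, higher than in cDC1-marked cells by 3.41, 3.99 and 5.01 times and within 2-fold of Cd209a-positive cells. Birc2, a regulator of the alternative pathway and of cell death, was 17.3 and 7.56 times higher at 476.5 CPM. Bcl2a1b and Bcl2a1d, near-identical copies of the survival gene A1 whose reads may be split, stood at 2678 and 1738 CPM, while Bcl2 itself was at 8.68 CPM. Bcl2l11, which encodes the death factor BIM, was at 107.4 CPM, 4.16 times higher than in cDC1-marked cells and within 2-fold of Cd209a-positive cells.

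Because the NF-kB genes moved together against cDC1-marked cells, the RefSeq promoters of this build (GRCm38.p6), 250 bases before to 50 after each start, were searched on both strands for the NF-kB binding motif known as the kB consensus. A gene may have several promoters, and the table held promoters for 474 of the 611 genes higher than in both classes, 418 of the 540 lower than in both and 4160 of the 5202 tested in both. It occurred in 4.51% of all 32851 promoters, 6.08% of those of the genes tested in both comparisons, 9.68% of those of the matched higher genes (61 of 630 promoters), and 5.12% of those of the matched lower genes (28 of 547). The genes higher and lower in both comparisons were 11.7% and 10.4% of 5202. A looser form of the motif, 3 G, any 5 bases and 2 C, was in 66.7% of the promoters of the higher genes, 65.1% of those of the lower genes and 68.0% of those of all genes tested in both. These shares were not tested. By list, 7 of the 16 matched NF-kB and survival genes held the consensus, as did 4 of 13 matched cytokine genes, 3 of 9 matched chemokine genes and none of the 9 matched label markers. Genes with a match were not all high: Ifnb1 had 0 UMIs in the mature cells, and Cxcl10 and Ccl9 were lower than in Cd209a-positive cells. Promoters of 4 genes higher than in cDC1-marked cells follow, shown because they pair the receptors 4-1BB and CD25 with subunits of NF-kB. Nfkb2 has further promoters with a match that are not shown. Capitals mark the bases that match the consensus on either strand, with overlapping matches joined, and the first begins 43, 201, 92 and 39 bases before the start of Tnfrsf9, Il2ra, Rel and Nfkb2. A match is a run of letters and not evidence of binding.
Tnfrsf9 (chr4:150927749-150928048, plus strand): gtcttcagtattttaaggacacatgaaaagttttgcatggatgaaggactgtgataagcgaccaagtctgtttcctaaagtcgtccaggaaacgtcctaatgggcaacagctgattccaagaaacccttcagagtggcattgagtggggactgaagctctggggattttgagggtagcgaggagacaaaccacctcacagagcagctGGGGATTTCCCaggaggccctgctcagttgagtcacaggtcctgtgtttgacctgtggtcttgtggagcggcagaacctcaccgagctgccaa
Il2ra (chr2:11642542-11642841, plus strand): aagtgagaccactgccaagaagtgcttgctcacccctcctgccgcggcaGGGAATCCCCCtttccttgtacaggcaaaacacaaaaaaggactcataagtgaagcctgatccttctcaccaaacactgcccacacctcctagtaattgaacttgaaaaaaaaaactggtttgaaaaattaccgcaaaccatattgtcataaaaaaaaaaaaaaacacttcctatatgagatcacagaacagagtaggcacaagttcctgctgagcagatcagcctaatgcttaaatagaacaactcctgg
Rel (chr11:23770920-23771219, minus strand): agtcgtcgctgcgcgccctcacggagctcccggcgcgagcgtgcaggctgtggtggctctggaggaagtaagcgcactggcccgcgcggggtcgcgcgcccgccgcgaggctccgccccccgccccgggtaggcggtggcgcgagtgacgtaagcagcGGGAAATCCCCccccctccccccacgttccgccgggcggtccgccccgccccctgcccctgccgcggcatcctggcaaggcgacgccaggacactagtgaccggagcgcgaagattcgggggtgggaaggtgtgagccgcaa
Nfkb2 (chr19:46304487-46304786, plus strand): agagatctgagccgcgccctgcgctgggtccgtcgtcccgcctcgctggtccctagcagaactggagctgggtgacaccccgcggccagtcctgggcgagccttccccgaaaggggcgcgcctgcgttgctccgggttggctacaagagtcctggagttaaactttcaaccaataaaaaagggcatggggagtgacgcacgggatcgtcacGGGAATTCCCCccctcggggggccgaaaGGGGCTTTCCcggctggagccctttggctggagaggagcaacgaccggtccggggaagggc

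**Figure D4:**
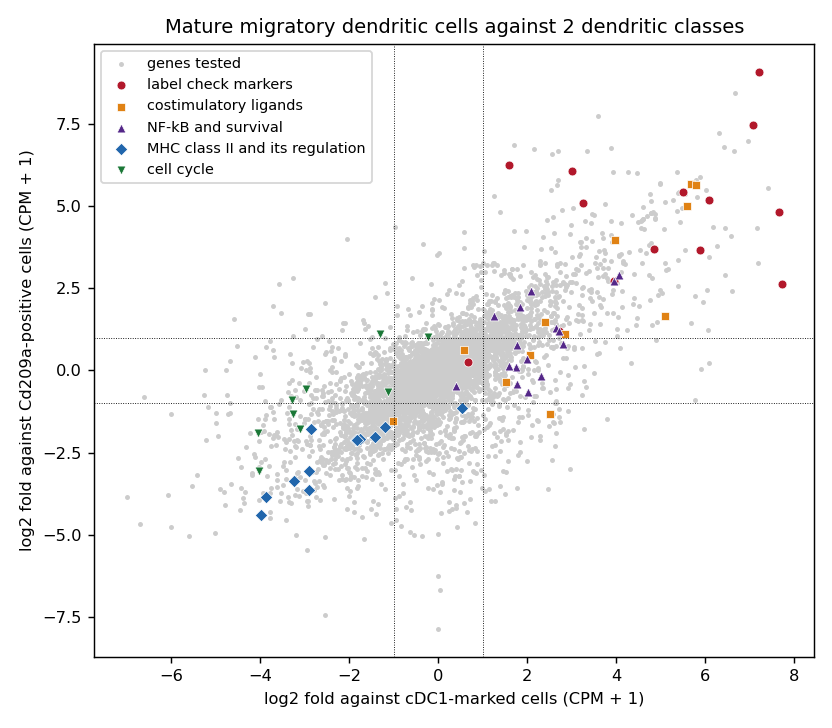
The log2 fold of each tested gene in mature migratory dendritic cells against cDC1-marked cells (horizontal) and against Cd209a-positive cells (vertical), on CPM + 1, with 5 gene lists colored and dotted lines at 2-fold. Both axes share the mature cells. Label markers lie at the upper right except Cd83, MHC class II genes lie at the lower left except Ctss, and NF-kB genes mostly along the right side.

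Genes of antigen presentation were divided. MHC class II molecules show peptides of taken-up antigen to CD4+ T cells, and 11 of 12 genes of the list were lower than in cDC1-marked cells and 12 of 12 lower than in Cd209a-positive cells (median log2 folds -2.35 and -2.12), with 9 of the 12 at 20 CPM or more in the mature cells themselves. H2-Ab1 ranged from 474.1 to 1714 CPM over the libraries and stood at 907 CPM pooled, against 8652 and 9336 CPM, 9.54 times (9.18 to 9.92) and 10.3 times (9.87 to 10.7) lower. Cd74, the invariant chain, was 3.55 and 4.34 times lower at 3900 CPM. Ciita, the master regulator of these genes, was at 15.1 CPM against 119.1 and 200.5 CPM. March1, whose product removes MHC class II from the surface, was at 3.54 CPM against 65.4 and 63.9 CPM. MHC class I genes were mostly within 2-fold: H2-K1 at 3052 CPM was 1.85 and 1.83 times the 2 classes and B2m at 3856 CPM was 2.23 and 1.82 times. Only Nlrc5, the regulator of class I genes, was called higher in both comparisons, and Calr, a chaperone, lower in both. Without library 4 the call of Nlrc5 against Cd209a-positive cells ended (66.7 against 36.5 CPM).

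Receptors of uptake and sensing differed by comparison, and 8 of the 21 in the file reached 20 CPM in the mature cells. Against Cd209a-positive cells, 10 of 12 tested were lower and none was higher (median log2 fold -2.47), with Fcgr2b and Fcgr1, both Fc receptors, 8.46 and 8.87 times lower and the mannose receptor gene Mrc1 13.3 times lower. Against cDC1-marked cells, 4 of 10 were lower, 1 was higher and 5 were neither (median log2 fold -0.16). The higher one was Itgam, an integrin of myeloid cells, at 24.8 against 6.46 CPM, with library 4 the highest at 78.8 CPM. Without library 4 it was at 11.3 CPM, and without the 20 cells at 15.5 CPM, under the filter in both cases, which ended its call. Among the lower, Cd36, a scavenger receptor, was 12.5 times lower and Tlr3, a sensor of double-stranded RNA, 159 times lower. Itgax, which encodes the dendritic cell integrin CD11c, was itself 7.11 and 8.92 times lower at 15.1 CPM.

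Cell cycle genes were mostly near the detection limit. Only 5 of the 15 reached 20 CPM in the mature cells, and the other 10 were tested against cDC1-marked cells only because they were high there, so the 14 called lower are no measure of division. Against Cd209a-positive cells 9 were tested, of which 2 were higher, 4 lower and 3 neither (median log2 fold -0.90), under the same limit. Mki67, the proliferation marker, was at 14.1 CPM against 144.4 CPM, with a UMI in 4.87% of the cells. Library 10, which had 17 of the cells, gave the highest Mki67 level at 107.1 CPM, and the transcript was found in 10 of 12 libraries.

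Migration and cytoskeleton genes were high beyond the rule. Of 15 tested, 10 were higher and none lower than in cDC1-marked cells, and 9 were higher and 1 lower than in Cd209a-positive cells. Marcksl1 and Marcks, which link actin to the membrane, stood at 588.7 and 1234 CPM, 22.0 and 4.35 times the cDC1-marked cells. Anxa3, a membrane-binding annexin gene, was at 617.6 CPM, 48.9 and 46.4 times higher. Cd63, of late endosomes, was at 975.1 CPM, 46.8 and 31.4 times higher, and Il7r, the IL-7 receptor, at 370.4 CPM, 74.2 and 4.26 times higher. Actb and Actg1, the actins, were 1.15 and 1.28 times the cDC1-marked cells. Cxcr4, the CXCL12 receptor, was 2.61 times higher than in cDC1-marked cells and 2.05 times lower than in Cd209a-positive cells, a call that ended without library 4 (124.2 against 243.2 CPM) or library 8 (112.5 against 203.6 CPM).

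Interferon-stimulated genes differed by comparison. Of 14 tested, 4 were higher, 3 lower and 7 neither against cDC1-marked cells (median log2 fold 0.37), and of 15 tested, none was higher and 7 were lower than in Cd209a-positive cells (-0.89). Over all genes, 17.6% were higher and 17.8% lower in the first comparison, and 14.2% and 20.5% in the second. Without library 4, Isg15 (123.4 against 250.5 CPM) and Rsad2 (43.4 against 160.8 CPM) were called lower than in Cd209a-positive cells too. Gbp2 and Irf1 stood at 194.2 and 197.1 CPM, 7.27 and 4.57 times the cDC1-marked cells, while Irf7 was 3.28 and 2.65 times lower at 93.2 CPM, the second call ending without library 11 (98.5 against 195.4 CPM). Rsad2 was at 84.2 CPM pooled, 247.7 CPM in library 4, 43.4 CPM without it and 40.4 CPM without the 20 cells with S100a8 and S100a9. Either omission ended its call as higher than in cDC1-marked cells, at 39.6 CPM (33.9 CPM without library 4).

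Polycomb genes were included because EZH2 was the target of the compound. Ezh2 (chr6:47530139-47595341), the H3K27 methyltransferase, ranged from 37.6 to 104.6 CPM over the libraries and stood at 70.1 CPM in 29.2% of the cells, 1.18 times lower than in cDC1-marked cells (0.986 to 1.42) and 2.14 times higher than in Cd209a-positive cells (1.5 to 3.11). The latter call of Ezh2 ended without library 4, 11 or 12, at 71.1, 71.4 and 69.5 CPM against 35.5, 36.3 and 34.3 CPM. Its core partners Eed and Suz12 were within 2-fold in both comparisons at 31.5 and 64.0 CPM. Aebp2, an accessory subunit of the same complex, stood out at 372.6 CPM in 75.7% of the cells, 3.77 times (3.33 to 4.27) and 9.33 times (6.93 to 12.9) the 2 classes, and was higher in every paired library. Kdm6a, a demethylase of H3K27, was at 72.0 CPM, 2.79 and 2.71 times higher, whereas Jarid2 at 71.4 CPM was 2.24 times lower than in Cd209a-positive cells. These levels come from vehicle and EZH2i mice together.

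Immediate early and heat shock genes, which tissue dissociation can raise, were not higher in these cells: of 17 tested, none was higher in either comparison, and 7 and 10 were lower. Fos stood at 175.2 CPM, 4.37 and 5.15 times lower, and Nr4a1, another immediate early gene, at 67.5 CPM. Hspa1a, a heat shock gene, was at 495.4 CPM in library 4 against a median of 31.6 CPM over the libraries, and without library 4 its pooled 151.8 CPM became 65.9 CPM and its call as lower than in Cd209a-positive cells ended (130.5 CPM).

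Outside the lists and among genes at 100 CPM or more in the mature cells, those furthest above both classes, and higher in every paired library, were headed by Apol7c, an apolipoprotein L gene, at 124.1 CPM with no UMI in either class and a range of 15.8 to 366.1 CPM over the libraries. Gm13546, an antisense RNA at chr2:58164001-58177063, was at 343.4 CPM in 66.3% of the cells against 2.35 and 0 CPM, and Gm47662, a long intergenic RNA at chr13:32997062-33001750, at 147.9 CPM in 42.3% against 0.880 and 0 CPM. Whether counting used the strand is not given in the sources used here, so reads of Gm13546 and of Cytip, a protein-coding gene on the other strand that it overlaps, cannot be told apart. The same holds for other named genes with a gene on the other strand, among them Tnfrsf9 (Camta1), Cd274, Il1b, Ezh2, Samsn1 and Bcl2l14, and Il4i1 (Nup62), Irf8, Itgam and Bcl2a1b overlap a protein-coding gene of their own strand. Both RNAs were found in all 12 libraries.

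Fabp5, a fatty acid binding protein gene, was the most abundant of the leading genes at 4338 CPM, 97.9 times (83.4 to 116) and 16.9 times (15.0 to 19.0) the 2 classes. It ranged from 1622 CPM in library 3 to 7075 CPM in library 4, with 3655 CPM pooled without library 4. Clu, which encodes the chaperone clusterin, was at 110.0 CPM, Adcy6, an adenylate cyclase gene, at 113.8 CPM, and Slc27a3, a fatty acid transport and activation gene, at 143.4 CPM. Eno3, a glycolytic enolase gene, stood at 187.4 CPM, Rhoc, a small GTPase gene, at 140.2 CPM, and Specc1, a cytoskeletal adaptor gene, at 261.7 CPM. Insl6 at 114.1 CPM and Ankrd33b at 162.4 CPM completed the 12. Among genes at 100 CPM or more in both classes, those furthest below them were Ckb, the brain-type creatine kinase gene, at 16.1 CPM against 1092 and 460.5 CPM, Gpr171, a G protein-coupled receptor gene, at 9.65 CPM against 513.5 and 344.2 CPM, and Plbd1 and Gm2a, both lysosomal, at 35.0 and 42.1 CPM. Rasgef1b, Tm6sf1, Hist1h2ae and Sla followed at 7.72 to 16.1 CPM. Each of the 8 was lower in every paired library, except Hist1h2ae, which was lower than in Cd209a-positive cells in 3 of 5 and lost that call without library 8 (9.58 against 20.2 CPM).

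Among transcription factors of the lineages, Irf8 and Batf3 lay within 2-fold of cDC1-marked cells, and Irf4 lay between the 2 classes. The origin of the cells was not tested. Irf8, needed for cDC1, stood at 1175 CPM, close to the 1321 CPM of cDC1-marked cells and 6.16 times the Cd209a-positive cells. Batf3, also of cDC1, was at 305.4 CPM, 1.95 and 5.94 times the 2 classes. Irf4, used by cDC2, was at 33.1 CPM, between 4.69 CPM in cDC1-marked and 85.2 CPM in Cd209a-positive cells. Flt3 and Zbtb46, of the dendritic lineage, were at 139.2 and 80.7 CPM against 0.690 and 0.376 CPM in macrophage-marked cells. The dendritic lineage list as a whole was mixed against the 2 dendritic classes. Of 10 tested, 2 were higher, 4 lower and 4 neither against cDC1-marked cells. Of 11 tested, 4 were higher, 5 lower and 2 neither against Cd209a-positive cells. The cDC1 genes Naaa, Wdfy4 and Itgae were 114, 46.6 and 74.2 times lower than in cDC1-marked cells, and the cDC2 genes Mgl2, Clec10a and Cd7 were 31.5, 246 and 259 times lower than in Cd209a-positive cells. Tmem176b, an endosomal gene of the cDC2 list, was the one not lower, at 409.9 CPM against 399.2.

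Transcripts of the 2 lineage sets were found in some cells. A UMI of Xcr1, Clec9a, Cadm1, Naaa or Tlr3 was in 64 cells (12%, 9.35 to 15.0%) and one of Cd209a, Mgl2, Clec10a, Cd209d or Itgam in 63 (11.8%, 9.19 to 14.8%), with both in 10. At 2000 UMIs a cell the shares were 5.57% and 8.02%. Macrophage-marked cells carry some of these genes themselves, such as Naaa in 20.6% and Itgam in 27.8% of thinned cells, so they give no background level for either set. Nor do the sets belong to one lineage alone, since the cDC1 set was in 34.7% of thinned Cd209a-positive cells (Naaa in 33.5%) and the cDC2 set in 8.82% of thinned cDC1-marked cells, against 8.02% of the mature cells. Neither set was therefore read as a mark of origin. For the more specific genes Clec9a and Xcr1, 2.0% (0.921 to 3.77%) and 0.891% (0.243 to 2.27%) of the thinned mature cells had a UMI, against 0.5% (0.240 to 0.918%) and 0.35% (0.141 to 0.720%) of macrophage-marked cells. As a description, the 54 cells with the cDC1 set alone (median 7361 UMIs) had Il12b in 75.9% (62.4 to 86.5%) and Bcl2l14 at 685.9 CPM, against 41.5% (28.1 to 55.9%) and 113.6 CPM in the 53 cells with the cDC2 set alone (median 5547 UMIs). Thinned to 2000 UMIs, which left out 1 and 3 of these cells, the Il12b shares were 60.4% (46.0 to 73.5%) and 26% (14.6 to 40.3%). Fabp5 ran the other way, at 2024 against 5545 CPM. Of the latter 53 cells, 20 were from library 4, and without that library the Il12b shares were 75.6% of 45 cells and 54.5% of 33 cells, whose intervals overlap, unlike those with it. Thinned, these became 65.9% of 44 cells (50.1 to 79.5%) and 40% of 30 cells (22.7 to 59.4%), which overlap too.

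Cells with and without Il12b were then compared, with means over all cells of each kind and the direction counted by library. Among 449 cells thinned to 2000 UMIs, 190 had Il12b and 259 did not, and 2486 genes were compared in 11 libraries, each with 5 or more cells of either kind. Only 5 were higher and 6 lower in all 11. Irf8 was at 2.85 UMIs a cell with Il12b and 1.94 without, higher in 11 of 11 libraries, as were Pmvk, an enzyme of the mevalonate pathway, Anxa5 and Txn1. S100a6, a calcium-binding protein gene, was at 1.61 UMIs with Il12b and 3.63 without, and Fabp5 at 5.62 and 11.8, both lower in 11 of 11 libraries, as were Zfand6 and Son. Costimulatory and inhibitory genes were less even: Cd86 was lower with Il12b in 10 of 11 libraries, Cd40 higher in 9, and Cd274 higher in 4 and lower in 7. Macrophage transcripts differed little, with Apoe at 1.02 and 1.14 UMIs. Library 4 had the lowest share of cells with Il12b, 28.2%, and the highest Fabp5 level, 7075 CPM. The means over all cells thus also hold differences between libraries. Over the 449 cells, log values of Il12b and Fabp5 had a Pearson r of -0.30, and of -0.19 within libraries.

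**Figure D5:**
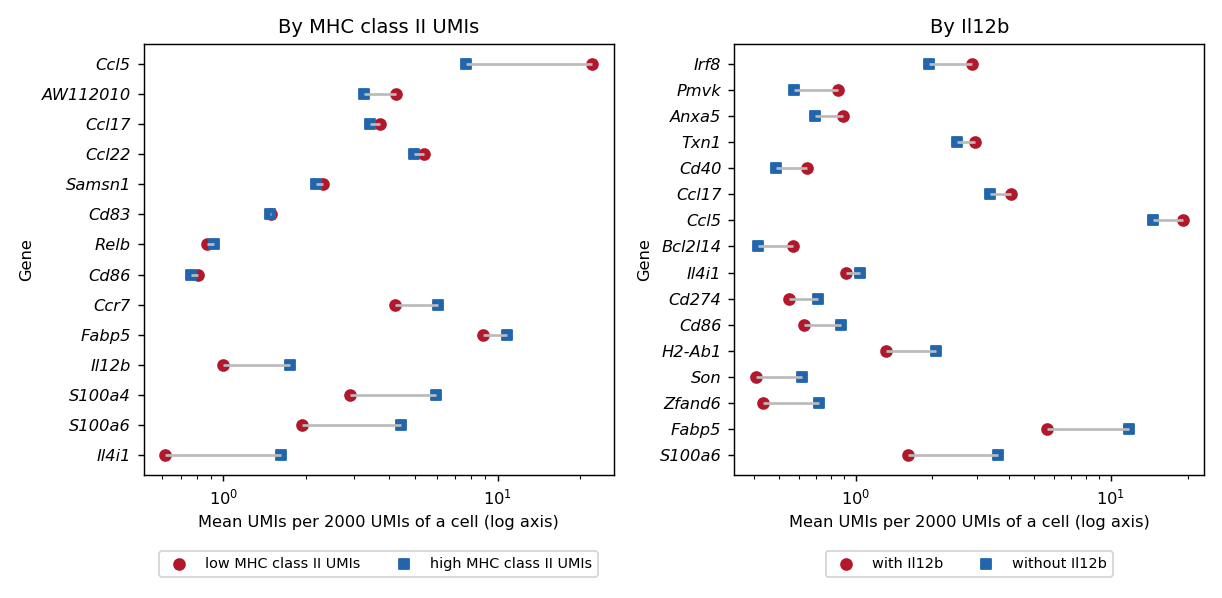
Mean UMIs per cell, each cell thinned to 2000 UMIs (log axis), of cells with low or high MHC class II UMIs (left) and of cells with or without an Il12b UMI (right). Symbols are means over cells and lines join the 2 means of a gene. Ccl5 falls from 22.1 to 7.62 UMIs from low to high MHC class II, and Fabp5 is at 5.62 UMIs with Il12b and 11.8 without.

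Variation from cell to cell was uneven among genes. Over 2487 genes the median ratio of variance to mean in thinned cells was 1.08, where 1 is counting noise alone. Ccl5 had a ratio of 21.3, from 1 UMI at the 10th percentile of cells to 11 at the median and 40 at the 90th, and its 5 highest cells held 7.72% of its UMIs. Cd74, Tmsb4x, Malat1 and Gm42418 were also broad, at 11.2 to 20.5. Other high ratios rested on a few cells: the 5 highest cells held 64.5% of the UMIs of Cxcl2, 65.0% of Ccl4, 81.1% of Ccl3, 75% of Cxcl3, 73.0% of S100a9 and 62.1% of S100a8. Library 4, with 24.1% of the cells, held 79.6 to 96.4% of the UMIs of those 6 genes. Cxcl9 likewise had 62.3% of its UMIs in 5 cells, with 3.90% in library 4.

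MHC class II and Ccl5 ran against each other among the cells. The sum of H2-Aa, H2-Ab1, H2-Eb1 and Cd74 ranged from 0 to 122 UMIs per 2000, with a median of 8, and it is a range without a gap, with 35 cells at the lower cut of 4 and 4 at the upper cut of 20. The 147 cells at or under the lower cut had 22.1 UMIs of Ccl5 and the 114 at or over the upper cut 7.62, and Ccl5 was higher in the former in 10 of 11 libraries. Il4i1 was at 0.612 and 1.62 UMIs, S100a6 at 1.93 and 4.42 and S100a4 at 2.90 and 5.94, each higher in the cells rich in MHC class II in 11 of 11 libraries. Il12b was at 0.993 and 1.75 UMIs, higher in the cells rich in MHC class II in 9 of 11 libraries, whereas H2-Ab1 was lower in cells with an Il12b UMI than in those without in 9 of 11 libraries (1.32 and 2.07 UMIs). Ccl17, Cd86, Cd83 and Samsn1 were nearly level. The macrophage gene Apoe was at 1.12 and 1.14 UMIs and C1qb at 0.184 and 0.202, so neither moved with the split, whereas S100a9 was at 0.599 and 0.0263. Across the 449 cells, log values of H2-Ab1 and Cd74 had a Pearson r of 0.66 and those of H2-Ab1 and Ccl5 one of -0.39 (-0.65 to -0.02 within 8 libraries). These r describe cells of shared libraries with a common total of 2000 UMIs.

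Between the 7 libraries with at least 30 of the cells, most genes were stable. Over the 2426 genes at 50 CPM or more in the pooled cells, the median standard deviation of log2(CPM + 10) was 0.32. The 8 genes with the widest spread, S100a8, S100a9, Cxcl3, Ccl3, Ccl4, Hspa1b, Cxcl2 and Hspa1a, had standard deviations from 1.64 to 2.44, and all 8 were highest in library 4. Library 4 also weighs most in the 50 CPM limit, which S100a9, Cxcl3, Ccl3 and Hspa1b passed only with it, so that their place in library 4 was partly set by the limit. S100a9 was at 1079 CPM there and at 0 to 54.6 CPM in the other 6, and Hspa1b at 413.4 CPM against 5.11 to 141.4 CPM. Pooled without library 4, S100a8 was at 69.1 CPM, S100a9 at 26.9 CPM, Cxcl3 at 7.63 CPM and Hspa1b at 36.6 CPM. Without the 20 cells with S100a8 and S100a9, Ccl3 was at 11.8 CPM, Ccl4 at 53.9 CPM and Cxcl3 at 23.2 CPM over all libraries, while Il12b was at 700.2 CPM, Ccl5 at 8256 CPM and Cd274 at 319.1 CPM.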

How the data were processed

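UMI counts per gene and barcode were deposited by the authors as 1 matrix of all libraries, without normalization. Per the labels, reads were processed with Cell Ranger 2.1.1 on mm10 and Seurat, while the matrix header names 3.0.2; the sources used here do not give the counting settings. The libraries hold the 3' ends of transcripts, so counts were not divided by length.

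The members and gene lists were chosen with earlier results of these data known. Barcodes were kept by limits on genes and mitochondria (over 200 and under 5000 genes, mitochondrial UMIs of at most 10%). Counts were summed over each class and scaled to CPM. Genes at 20 CPM or more in 1 of 2 classes were tested, without rule, mitochondrial and ribosomal protein genes, and called at 2-fold of CPM + 1. Paired libraries had at least 20 cells of both classes. Intervals are exact (Clopper-Pearson, Poisson, conditional binomial) at 95% and cover counting error only; a class at 0 was set to 3 counts. Cells were thinned to 2000 UMIs for comparisons across depths, and of the macrophage-marked cells a random draw of 2000 was used. From each list the genes of highest CPM and largest fold were named, up to 6 a list, with the chemokine, costimulatory, inhibitory and cytokine genes at 50 CPM or more; outside the lists 12 higher and 8 lower genes; and the 12 and 8 genes varying most between cells and libraries. Il12a, Il23a, Ccl19, Ido1, Ido2, Tnfsf9, Bcl2, Cxcr4 and some further list members were named after their values were seen. Cd58, Clec7a and Ezhip were not analysed here, and Marchf1 was analysed under the name March1. Doublets were not removed. Coordinates are those of GENCODE M21 (31011 of 31053 identifiers matched). On simulated counts, 99.5% and 98.5% of 200 genes changed 4-fold were recovered for the cDC1 and Cd209a comparisons (4910 and 5128 genes). The simulated counts were Poisson sums without spread between cells or libraries, so this checks the calculation and not the calls. Scripts ran on numpy 2.4.6, pandas 2.3.3, scipy 1.17.1 and matplotlib 3.10.9 under Python 3.11.15.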

Additional observations from a re-analysis of the deposited data

How the results depend on the processing

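Vehicle and EZH2i could not be compared because no source used here ties a library number to a mouse. The classes were compared within the paired libraries, by direction only. No result comes from a test between groups. The share of mature migratory dendritic cells depends on the rule. It was 0.414% as reported, 0.495% with 1 UMI of Fscn1 enough, 0.342% with 3 required, 0.379% with 2 of Ccl22 required, 0.296% with C1qa at 0, 0.580% with no C1qa limit, 0.527% with a mitochondrial limit of 5% and 0.285% with barcodes thinned to 2000 UMIs before the rule. Leaving out single libraries gave 0.355% (library 4) to 0.501% (library 6). With no C1qa limit the share of cells with a cDC1 transcript was 20.1%, and with thinning first it was 5.10%; single libraries left out gave 11.4 to 13.1%. The share with Il12b was 45.2% with thinning first and 51.9 to 61.4% with single libraries left out, the highest without library 4.

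Counts of genes followed the filter and the fold, by construction. With no filter, 2066 genes were higher and 1991 lower than in cDC1-marked cells, and 1966 higher and 2273 lower than in Cd209a-positive cells. With a filter at 50 CPM they were 633, 567, 511 and 707, and at 3-fold 590, 557, 456 and 658. Single libraries left out gave 931 to 1007, 970 to 1013, 797 to 826 and 1132 to 1193. TMM scaling shifted the comparison with Cd209a-positive cells by a log2 of -0.19 and gave 1051 higher and 963 lower genes there, against 804 and 1161. All other alternatives, among them a pseudocount of 10 CPM and the mean of library CPM, and the 2 added after seeing the data (cells with S100a8 and S100a9, or with over 2 times the median UMIs, left out), kept each gene count within 1.5 times.

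The depth limits single-cell statements: no UMI in the 534 cells allows a level of up to 0.965 CPM. The libraries are not replicates of a group here, so no difference between vehicle and EZH2i can be read from these values.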
